A study of Mus musculus with 14 samples.

Results

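Chronic exposure to the inflammatory cytokine IL-1β (interleukin-1 beta) was compared with phosphate-buffered saline (PBS) after 20 days, in bone marrow cells enriched for hematopoietic stem cells. The comparison takes the 4 libraries labelled IL-1β for 20 days and the 4 labelled PBS for 20 days, 8 of the 14 libraries of the series, chosen by their labels and not by any measured value. The other 6 libraries came from mice treated for 1 day. They entered only the choice of genes to test, the scaling of the libraries, the shared estimate of spread and the comparison of durations. All mice were C57BL/6, and each received 0.5 µg of IL-1β, or PBS, per day by injection into the peritoneum. Each library is a biological replicate made from sorted cells of 3 to 5 pooled mice, so that differences between single mice within a pool cannot be seen. The sort gate was LSK/Flk2-/CD48-/CD150+, where LSK stands for lineage-negative, Sca-1-positive and Kit-positive cells. No age or sex of the mice is given in these sources.

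IL-1β binds the receptor IL-1R1, which pairs with the accessory protein IL-1RAP and signals through MyD88 and IRAK kinases to the transcription factor NF-κB. Hematopoietic stem cells carry this receptor and respond to IL-1 with faster division and with expression of myeloid genes, a program in which the transcription factor PU.1 (encoded by Spi1) takes part. Stem cells of the resting marrow divide rarely, with little protein synthesis and low levels of the cell division and ribosome building genes that mark progenitors.

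The 8 libraries held between 22318141 and 29441947 counts, so that 3 counts in a single library equal 0.102 to 0.134 CPM, the counts scaled to a common library total. Between 18119 and 19534 genes had a count. Values per library are CPM scaled with TMM factors, given for replicates 1 to 4 in that order. A log2 fold change is IL-1β over PBS with an approximate standard error (SE), from edgeR's quasi-likelihood test with Benjamini-Hochberg adjustment over the 15466 genes tested of 24833 in the table. A gene was called at an adjusted p below 0.05. The titles put replicates 1 and 2 of each group in a set tagged E061316 and replicates 3 and 4 in an untagged set, and the fit holds a term for this set. IL-1β replicate 3 carried transcripts of neutrophil granules, which made up 0.192% of its counts, and every count below was also taken without that library. PBS replicate 4 stood apart on the third principal component of the 8 libraries, which holds 14.4% of the variance. On the first, with 25.1%, IL-1β replicate 2 was furthest from 0, at 62.3. On the second, with 22.2%, it lay at -27.8, among the PBS libraries at -36.8 to -13.3. The other IL-1β libraries lay there at 16.7 to 55.2.

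The genes of the gate itself were checked first. Kit, the receptor for stem cell factor that the gate selects for, lay at 1424, 1439, 1120.0 and 586 CPM in PBS and at 1275, 1227, 1193 and 1118 CPM in IL-1β. Ly6a, which encodes Sca-1, lay at 93.2 to 143 CPM in PBS and 128 to 153 CPM in IL-1β. The groups overlapped for both genes, and neither passed the test (adjusted p = 0.77 for Kit and 0.196 for Ly6a). Slamf1, which encodes CD150, was at 68.9, 67.6, 56.1 and 39.4 CPM in PBS and at 116, 99.9, 89.6 and 96.2 CPM in IL-1β. It rose in all 4 IL-1β libraries above every PBS library, by 0.81 ± 0.12 on the log2 scale (adjusted p = 0.000926, edgeR). Of the 5 tested genes for proteins the gate selects against, Flt3, Cd48 and Itgam were called higher, and they are described with the progenitor and integrin genes.

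After 20 days, 1154 genes differed between IL-1β and PBS, or 7.46% of the genes tested. Of these, 609 were higher with IL-1β (3.94%) and 545 were lower (3.52%), while the median log2 fold change over all genes tested was -0.00. These shares are the background for the counts of every gene list below. At an unadjusted p below 0.05 the count was 3160 genes. At least 2-fold changes were fewer, with 165 genes higher (1.07%) and 115 lower (0.744%). Of the called genes, 552 moved by less than 1.5-fold. The 4 IL-1β and 4 PBS values did not overlap for 909 of the 1154 genes, 469 higher and 440 lower; over all genes tested, 5.39% were separated upward and 4.99% downward. Without IL-1β replicate 3, 763 genes were called, 403 higher (2.63% of those tested) and 360 lower (2.35%), and 719 of them were among the 1154. Leaving out IL-1β replicate 4 left 648 genes, and leaving out IL-1β replicate 1 left 705. The count without the set term was 525 with 275 higher and 250 lower, and among the genes described below the calls of Irak3, Socs3, Relb, Vegfa, Cdkn1c, Treml1, Rrm2, H2-Oa, Gbp7 and Gbp9 ended without it. So did those of Ncf1, Hdc, Cxcr4, Ifi44, Btg2, Fas, Gart, Gstm1, Kdm5b and Srsf2, which are named in the closing sections.

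**Figure D1:**
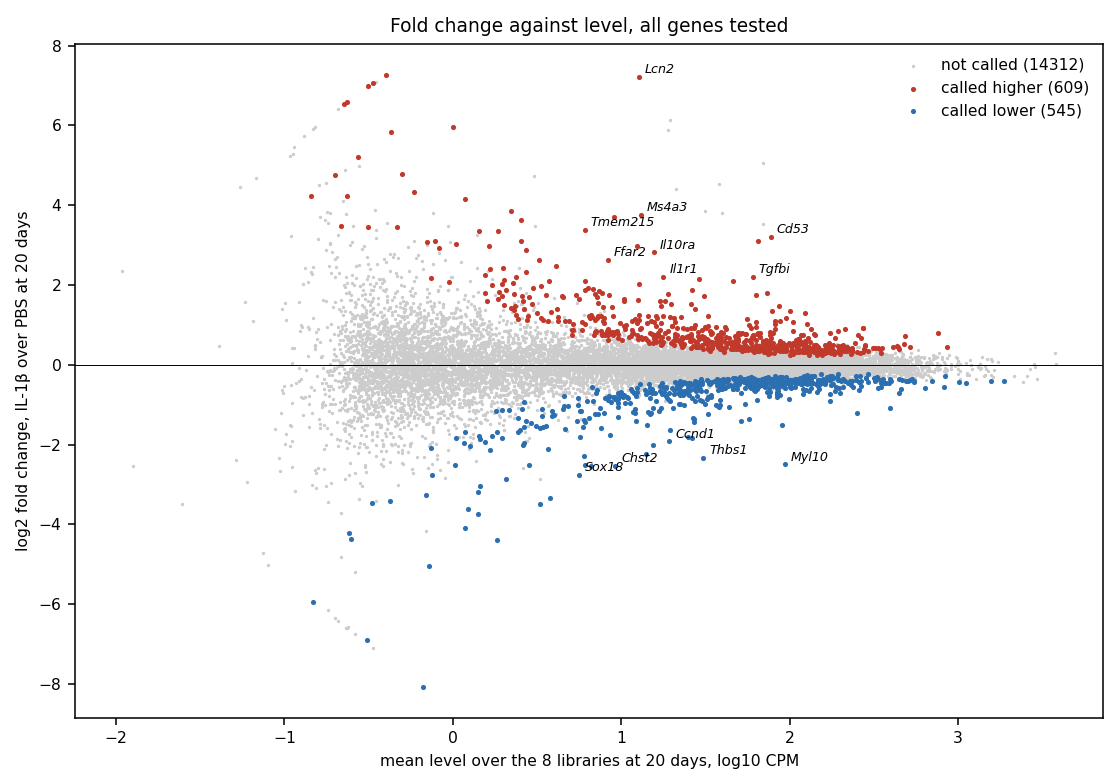
Each point is 1 of the 15466 genes tested, with its mean TMM-scaled CPM over the 8 libraries at 20 days (log10 x axis) and its log2 fold change of IL-1β over PBS (y axis); red points are the 609 genes called higher, blue points the 545 called lower, and some genes of the text are labelled. Calls lie on both sides of 0, and called genes of low level have larger folds than called genes of high level.

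The largest increases with non-overlapping groups included surface receptors and adhesion genes. Cd53, which encodes a tetraspanin of blood cell membranes (chromosome 3, 106759921 to 106790149, minus strand, GRCm38), was at 7.15, 21.4, 18.6 and 12.8 CPM in PBS and at 164, 133, 128 and 132 CPM in IL-1β. All 4 IL-1β libraries were several times above the highest PBS library. The log2 fold change was 3.21 ± 0.28 (9.27-fold, adjusted p = 1.57e-05, edgeR). Ms4a3, a gene of granulocyte and monocyte progenitors (chromosome 19, 11629496 to 11640851, minus strand), was at 1.46, 2.84, 1.116 and 1.66 CPM in PBS and at 15.8, 20.7, 41.1 and 20.2 CPM in IL-1β. Its highest value was in replicate 3, the library with neutrophil transcripts, and its log2 fold change of 3.76 ± 0.34 (adjusted p = 2.07e-05) was 3.40 without that library. Pirb, which encodes an inhibitory immunoglobulin-like receptor, rose from 0.406 to 0.918 CPM in PBS to 3.38 to 7.09 CPM in IL-1β.

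Tgfbi and Vldlr had the smallest adjusted p among the named genes that rose. Tgfbi encodes a secreted matrix protein induced by TGF-β (chromosome 13, 56609523 to 56639562, plus strand), and it was at 22.4, 24.8, 20.1 and 18.4 CPM in PBS against 116, 97.7, 81.3 and 101 CPM in IL-1β. Its log2 fold change was 2.21 ± 0.12 (4.63-fold, adjusted p = 1.4e-07, edgeR). Vldlr, a lipoprotein receptor that also marks long-term stem cells in mouse expression studies (chromosome 19, 27216484 to 27254231, plus strand), was at 29.5, 33.4, 29.8 and 23.6 CPM in PBS and 103, 103, 91.4 and 93.1 CPM in IL-1β, a 3.36-fold increase (adjusted p = 1.81e-07). In both genes the spread within each group was small beside the gap between groups. Both had nearly the same log2 fold change after 1 day, 2.07 for Tgfbi and 1.73 for Vldlr, in separate mice with separate controls.

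Other leading increases covered several functions. Ffar2, a receptor for short-chain fatty acids, lay between 1.37 and 3.23 CPM in PBS and between 12.7 and 16.5 CPM in IL-1β. Pdcd1, which encodes the inhibitory receptor PD-1, lay at 1.32 to 3.79 CPM in PBS and at 16.3, 10.04, 30.3 and 31.6 CPM in IL-1β, higher in the untagged set. Serpine2, a secreted protease inhibitor, was at 8.72 to 11.8 CPM in PBS and at 50.6, 51.8, 26.4 and 61.7 CPM in IL-1β, lowest in replicate 3. Tmem215, a membrane protein of little known function, rose from at most 1.5996 CPM to at least 8.38 CPM. Each of these groups was separated, and the adjusted p was between 4.44e-05 for Serpine2 and 0.00295 for Pdcd1. The adult β-globin gene Hbb-bt was at 7.24, 22.2, 10.4 and 13.9 CPM in PBS and 131, 131, 92.6 and 110.2 CPM in IL-1β. Its near-identical neighbour Hbb-bs went the other way, from 1.49 to 4.84 CPM to 0.781 to 0.898 CPM, with a log2 fold change of -1.68 ± 0.36 that lost its call without IL-1β replicate 1 (adjusted p = 0.0504). Since reads of these copies can be assigned to either, neither value is certain for its own gene. Lcn2, a neutrophil granule gene, was at 94.1 CPM in IL-1β replicate 3 against 1.76 to 3.16 CPM in the other IL-1β libraries. Its log2 fold change of 7.22 was 4.02 to 7.98 with single libraries left out. Lcn2 kept its call without IL-1β replicate 3, but the call ended without PBS replicate 3 or PBS replicate 4.

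**Figure D2:**
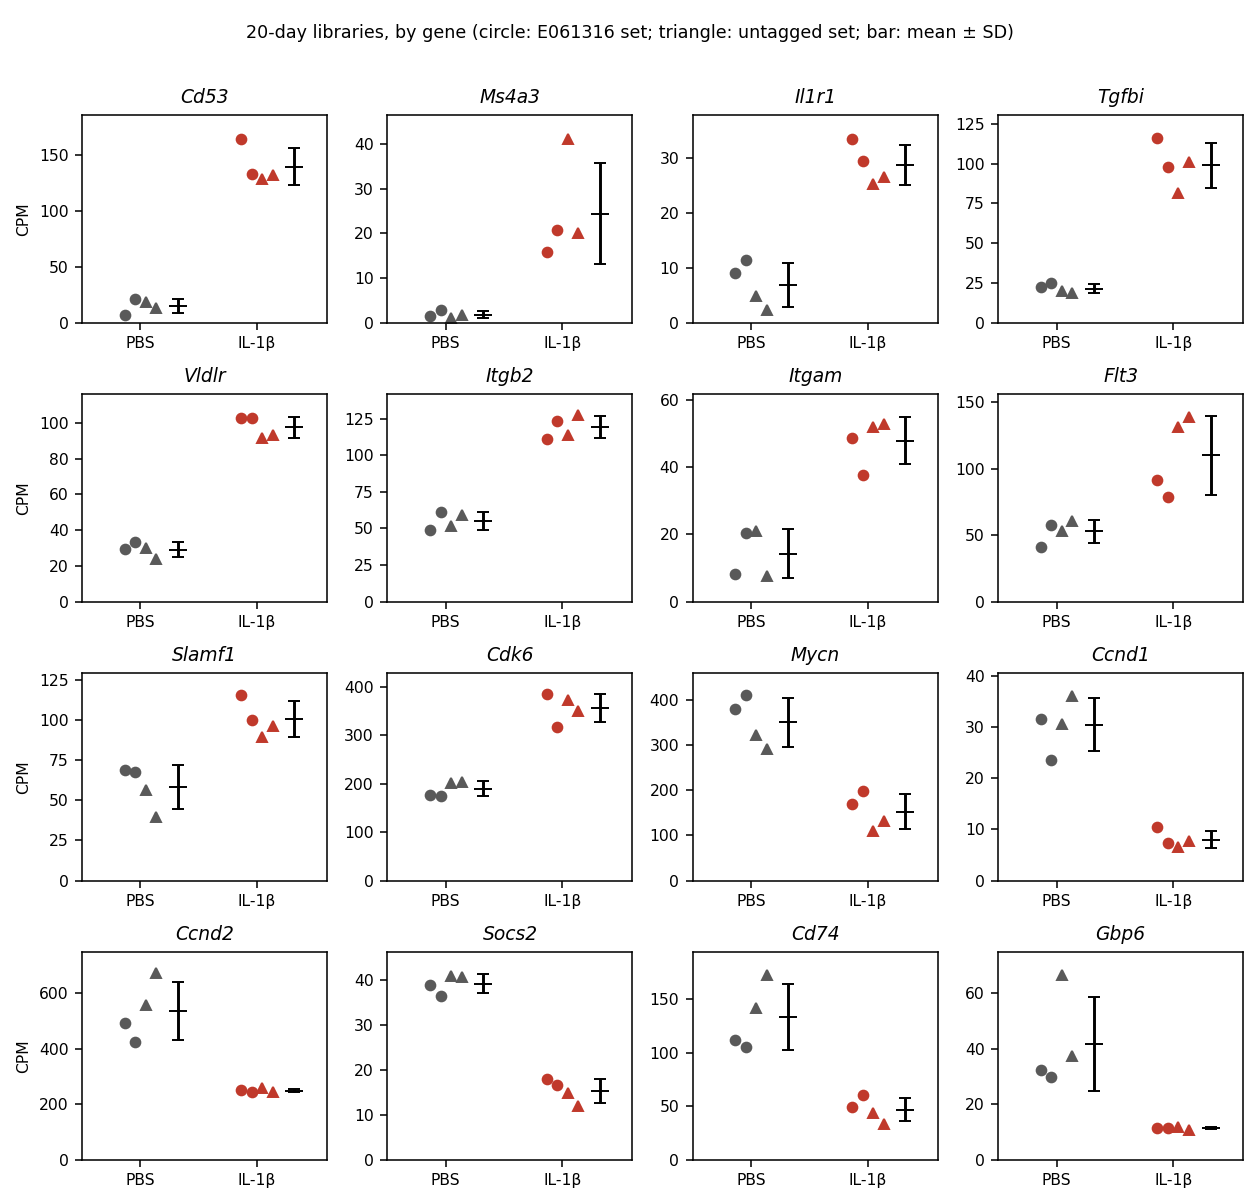
Points are TMM-scaled CPM of 16 genes in each of the 8 libraries at 20 days, on linear axes from 0, with PBS in grey and IL-1β in red, circles for the E061316 set, triangles for the untagged set, and a bar at the mean ± SD of each group. The groups do not overlap in any panel: Cd53, Ms4a3, Il1r1, Tgfbi, Vldlr, Itgb2, Itgam, Flt3, Slamf1 and Cdk6 are higher with IL-1β, and Mycn, Ccnd1, Ccnd2, Socs2, Cd74 and Gbp6 are lower.

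Among called genes with a mean of at least 5 CPM and separated groups, Sox18 had the largest fall. It encodes a transcription factor of endothelial and early blood development (chromosome 2, 181669836 to 181671640, minus strand) and was at 9.10, 10.9, 8.46 and 10.6 CPM in PBS and at 1.47, 1.80, 1.56 and 0.94 CPM in IL-1β. The log2 fold change was -2.76 ± 0.25 (6.78-fold lower, adjusted p = 2.07e-05, edgeR). Chst2, a sulfotransferase that modifies carbohydrate chains (chromosome 9, 95399292 to 95406722, minus strand), was at 15.1 to 16.6 CPM in all PBS libraries and 2.23 to 3.09 CPM in all IL-1β libraries, with a log2 fold change of -2.53 ± 0.19. These were among the tightest groups of any leading gene. Thbs1, which encodes the matrix protein thrombospondin-1, lay at 35.2, 47.4, 97.0 and 26.5 CPM in PBS and 10.8, 7.91, 14.5 and 6.69 CPM in IL-1β. Trib2, a pseudokinase, lay at 16.7 to 33.2 CPM in PBS and 5.09 to 7.86 CPM in IL-1β. Myl10, a myosin light chain, varied more than the others in PBS, from 86.0 to 262 CPM, and lay at 16.5 to 39.9 CPM in IL-1β. No single library ended the call of any of these genes.

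The IL-1 pathway was taken from the receptor inward. Il1r1, the signalling receptor (chromosome 1, 40225080 to 40317257, plus strand), was at 8.96, 11.4, 4.77 and 2.36 CPM in PBS and at 33.5, 29.5, 25.2 and 26.7 CPM in IL-1β. Every IL-1β library was above every PBS library, and the log2 fold change was 2.21 ± 0.26 (4.63-fold, adjusted p = 0.000198, edgeR). Il1rap, its partner chain, lay at 15.1 to 39.6 CPM in PBS and 24.6 to 39.7 CPM in IL-1β, and its log2 fold change of 0.00 ± 0.22 did not pass the test and took either sign when single libraries were left out. Irak3, a kinase-dead family member that dampens the signal, was at 134, 146, 116 and 102 CPM in PBS and 163, 180.4, 168 and 164 CPM in IL-1β (0.45 ± 0.09, adjusted p = 0.00718). In all, 5 of the 22 tested genes of the receptor and its proximal signalling rose and 1 fell, with a median of 0.13. Leaving out a library left 2 to 4 rising genes. The number was 2 when IL-1β replicate 2 or 4 or PBS replicate 1 was absent, and 3 when IL-1β replicate 3 or PBS replicate 3 or 4 was. None fell without IL-1β replicate 3.

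NF-κB genes changed little in number. Of 24 tested subunits and inhibitors, 1 rose and 1 fell, and 2 rose without IL-1β replicate 1 or PBS replicate 1 or 2. Each single call is 4.17% of the list, near the 3.94% higher and 3.52% lower over all genes tested. Nfkb1, which encodes the p50 precursor, was at 178 to 187 CPM in PBS and 242 to 266 CPM in IL-1β (0.46 ± 0.07, adjusted p = 0.00132, edgeR), while Relb, a subunit of the alternative pathway, fell by 0.61 ± 0.14 (adjusted p = 0.014).

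Feedback genes split by direction. Socs3, an inhibitor of JAK-STAT signalling that follows STAT3, was at 31.7, 27.5, 28.9 and 35.6 CPM in PBS and at 72.9, 71.3, 158 and 159.8 CPM in IL-1β. The increase was seen in both sets and was larger in the untagged set, and over all libraries it was 1.80 ± 0.28 on the log2 scale (3.48-fold, adjusted p = 0.0013). Socs2, which follows STAT5 and restrains growth hormone and cytokine receptors (chromosome 10, 95385362 to 95417180, minus strand), moved the other way, from 38.7, 36.3, 40.9 and 40.6 CPM in PBS to 17.8, 16.7, 14.7 and 11.9 CPM in IL-1β. Its log2 fold change was -1.37 ± 0.12 (adjusted p = 1.66e-05). Cish, a related STAT5 target chosen after its value was seen, also fell, by 0.98 (adjusted p = 0.00134). Dusp4, a phosphatase that ends MAP kinase signalling, was at 25.1 to 34.7 CPM in PBS and 5.78 to 11.4 CPM in IL-1β. Of the 29 tested feedback genes, 2 rose and 5 fell; without IL-1β replicate 1, 3 or 4 or PBS replicate 2 or 4, 1 rose.

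Cytokine genes of the cells themselves showed small counts. Of 34 tested cytokine and chemokine genes, 4 rose and 2 fell, with a median of 0.11, and 2 rose without IL-1β replicate 4. The calls are 11.8% higher and 5.88% lower, against 3.94% and 3.52% over all genes tested. Ccl9, a chemokine of myeloid cells, was at 3.36, 3.999, 7.81 and 6.12 CPM in PBS and 12.1, 13.5, 19.9 and 16.8 CPM in IL-1β (1.59 ± 0.23, adjusted p = 0.000665, edgeR). Il12a, a subunit of interleukin-12 and interleukin-35, rose by 0.82 ± 0.14, and Vegfa, a growth factor for vessels, fell by 0.78 ± 0.15. Il1b itself, chosen after its value was seen, was low at 0.219 to 1.04 CPM in PBS and 1.94 to 3.17 CPM in IL-1β, and its call (adjusted p = 0.0142) ended without IL-1β replicate 4.

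Among genes of multipotent progenitors, the step below stem cells, 7 of 13 tested rose and none fell, with a median log2 fold change of 0.90. Leaving out single libraries left 5 to 8 of them. Flt3, the receptor whose protein the gate excludes (chromosome 5, 147330741 to 147400489, minus strand), was at 40.8, 57.5, 53.1 and 60.4 CPM in PBS and 91.4, 78.7, 132 and 139 CPM in IL-1β. All 4 IL-1β values lay above all PBS values, and the log2 fold change was 1.02 ± 0.15 (adjusted p = 0.000768, edgeR). Plac8, a gene of lymphoid and myeloid primed progenitors, was at 30.9, 38.2, 56.5 and 55.7 CPM in PBS and 108, 112, 129 and 102 CPM in IL-1β (2.55-fold). Cd52, a small surface glycoprotein of leukocytes, was at 2.61 to 4.50 CPM in PBS and 9.16 to 16.9 CPM in IL-1β (3.47-fold). Satb1, a chromatin organiser of lymphoid priming, rose by 1.06 ± 0.20. Cd48, also excluded by the gate, was low in every library, at 2.78 to 3.63 CPM in PBS and at 7.22, 6.94, 9.24 and 3.41 CPM in IL-1β; its call ended without IL-1β replicate 3 (adjusted p = 0.111) and also without IL-1β replicate 1 and without PBS replicate 1 or 2. In bulk RNA a larger share of cells of a type and more RNA per cell cannot be told apart.

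Long-term stem cell markers did not move in a single direction. Of 34 tested, 4 rose and 6 fell, with a median of -0.04, and the numbers were 5 and 6 without IL-1β replicate 3, while 2 rose without IL-1β replicate 4. Vldlr and Slamf1 were among those that rose. Procr, which encodes the stem cell marker EPCR, had a log2 fold change of -0.30 ± 0.10 and did not pass the test (adjusted p = 0.0793). Tcf15, a transcription factor of quiescent stem cells, fell from 21.1 to 37.6 CPM in PBS to 11.8 to 13.6 CPM in IL-1β (2.11-fold lower). Of 31 tested stem cell transcription factors, 3 rose and 1, Tcf15, fell. These are 9.68% and 3.23% of the list, against 3.94% and 3.52% over all genes tested. None rose without IL-1β replicate 4, 1 without IL-1β replicate 1 and 2 without IL-1β replicate 3.

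Spi1, the gene of PU.1, lay at 97.9, 96.3, 116 and 134 CPM in PBS and at 113, 113, 132 and 116 CPM in IL-1β. The groups overlapped, and the log2 fold change of 0.10 ± 0.08 did not pass the test (adjusted p = 0.568, edgeR). Of 29 tested myeloid transcription factors, 6 rose and 2 fell, against 3 and 1 without IL-1β replicate 3, and 3 rose without IL-1β replicate 4. Cebpd, a C/EBP factor induced by inflammation, was at 4.37, 6.40, 6.97 and 6.29 CPM in PBS and at 13.5, 13.5, 29.8 and 20.2 CPM in IL-1β (3.08-fold, adjusted p = 0.000362), with a log2 fold change of 1.62 that was 1.44 without replicate 3. Gfi1, a transcriptional repressor that acts in granulocyte development, was at 9.49 to 13.3 CPM in PBS and 27.5, 17.0, 27.2 and 37.3 CPM in IL-1β. Bcl6, a repressor of inflammatory genes, was at 2.80 to 5.56 CPM in PBS and 8.495 to 9.98 CPM in IL-1β. Cebpa, the factor of granulocyte commitment, had a log2 fold change of -0.68 and did not pass the test (adjusted p = 0.416).

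Adhesion receptors of leukocytes were among the increases. Of 21 tested integrin genes, 6 rose and none fell, with a median of 0.49, and leaving out single libraries left 5 to 7. Itgb2, the β chain shared by the leukocyte integrins (chromosome 10, 77530252 to 77565708, plus strand), was at 48.8, 61.2, 51.5 and 59.1 CPM in PBS and at 111, 124, 114 and 127 CPM in IL-1β (1.11 ± 0.10, adjusted p = 2.55e-05, edgeR). Itgam, which pairs with it as CD11b, was at 8.17, 20.5, 20.9 and 7.69 CPM in PBS and 48.7, 37.7, 52.0 and 53.05 CPM in IL-1β (3.32-fold). Its value in replicate 3 was not above that of replicate 4, and the log2 fold change was 1.71 without replicate 3 against 1.73 with it. Itgb7, a chain of gut-homing integrins, was at 14.5 to 27.9 CPM in PBS and 35.8 to 51.0 CPM in IL-1β. Selp, which encodes P-selectin, was at 48.1, 70.9, 61.0 and 46.6 CPM in PBS and 148, 154, 122 and 154 CPM in IL-1β (adjusted p = 0.00021). Pecam1, an adhesion gene of vessels, platelets and stem cells, was at 41.4 to 78.4 CPM in PBS and 123 to 137 CPM in IL-1β (2.24-fold), whereas Icam1, the ligand of the leukocyte integrins, fell by 0.49 (adjusted p = 0.0104).

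The Ms4a genes encode membrane proteins of blood cells and lie in a cluster of 236 kb on chromosome 19 (11404770 to 11640851). Of 7 tested, 5 rose, with a median of 2.21, and 3 of them without IL-1β replicate 3 or without PBS replicate 1. Ms4a6c was at 8.22 to 10.7 CPM in PBS and 24.5 to 27.3 CPM in IL-1β (1.46 ± 0.14, adjusted p = 3.23e-05, edgeR). Ms4a6b rose by 0.80 ± 0.12. Another of the 5, Ms4a2, a receptor chain of mast cells and basophils chosen after its value was seen, was at 0 to 0.237 CPM in PBS and 0.503 to 1.69 CPM in IL-1β (adjusted p = 0.0401). It is also in the mast cell and basophil marker list, of which 4 of 6 tested genes were called higher, and 1 without IL-1β replicate 3; the part of such cells was not tested. Ms4a6b and Ms4a6c are close copies, so reads may be divided between them.

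Fc receptors and their partners, which signal through tyrosine motifs, had 8 of 27 tested genes called higher and none lower, but only 3 to 5 of them when any single library was left out. Fcgr2b, the inhibitory IgG receptor, was at 1.996 to 3.36 CPM in PBS and 6.79, 7.91, 12.02 and 7.52 CPM in IL-1β (1.65 ± 0.29, adjusted p = 0.00344, edgeR). Granule and priming genes had 5 of 16 called higher and 1 lower, or 3 and 1 without IL-1β replicate 3, and 3 rose without IL-1β replicate 1 or PBS replicate 2. Nkg7, a granule membrane protein, was at 33.6 to 47.7 CPM in PBS and 74.4 to 93.8 CPM in IL-1β, with replicate 3 at 83.7 CPM. Mgst1, a glutathione transferase of early myeloid cells, rose by 0.78.

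Of 30 tested cytokine receptors, 8 rose and 2 fell, with a median of 0.28; 1 fell without IL-1β replicate 1, 3 or 4. Il10ra, the receptor for the anti-inflammatory interleukin-10, was at 4.42, 7.08, 2.30 and 2.14 CPM in PBS and 23.8, 15.1, 25.9 and 44.0 CPM in IL-1β (7.05-fold, adjusted p = 0.000543, edgeR). Csf2rb2, a β chain of the interleukin-3 receptor, was at 8.69 to 11.1 CPM in PBS and 21.5 to 24.1 CPM in IL-1β (2.32-fold), and reads may be shared with its near-identical neighbour Csf2rb. Csf3r, the G-CSF receptor, was at 105, 110.3, 123 and 84.2 CPM in PBS and 154, 154, 203 and 200.3 CPM in IL-1β (0.74 ± 0.12). Epor, the erythropoietin receptor, rose by 0.57 ± 0.10. Csf1r, the M-CSF receptor, did not pass the test.

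Platelet and megakaryocyte genes had 14 of 34 tested members called higher and 3 lower, with a median of 0.36. Without IL-1β replicate 3 the numbers were 16 and 2 with a median of 0.44, without IL-1β replicate 4 only 7 rose, and without PBS replicate 1 only 8. The megakaryocyte markers summed to 464 to 615 CPM in PBS and to 816, 885, 696 and 1181 CPM in IL-1β, so that replicate 3 was lowest and replicate 4 highest of the treated libraries. Of the 8 marker genes 4 were called higher, and Itga2b, which encodes CD41, made up most of the sum in every library. Itga2b is also among the integrin genes above. It was at 332, 386, 343 and 408 CPM in PBS and 541, 609, 489 and 784 CPM in IL-1β (0.72 ± 0.13, adjusted p = 0.0035, edgeR). Treml1, a receptor of platelet granules, was at 9.78 to 12.5 CPM in PBS and 26.0, 27.0, 12.8 and 27.4 CPM in IL-1β, and its log2 fold change of 1.05 was 1.27 without replicate 3. Thbs1, described above, was among the members that fell.

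Genes that build ribosomes fell as the largest group of decreases among the lists. Of 55 tested, 31 were lower and none higher, with a median of -0.41; 22 were lower without IL-1β replicate 3 and 20 without IL-1β replicate 1. Ppan, a factor of the large ribosomal subunit, was at 147, 127, 170.4 and 196 CPM in PBS and 81.3, 90.1, 122 and 109.6 CPM in IL-1β (-0.67 ± 0.09, adjusted p = 0.000342, edgeR). Gnl3, the nucleolar GTPase nucleostemin, fell by 0.68 ± 0.09. Polr1a, the largest subunit of RNA polymerase I, was at 84.6 to 118 CPM in PBS and 62.2 to 71.8 CPM in IL-1β. The decreases were modest in size and seen in both sets. Of the 86 tested genes of cytosolic ribosomal proteins themselves, 1 fell and none rose; the median was 0.09 in the E061316 set and -0.46 in the untagged set.

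The growth transcription factor genes Mycn and Myc were lower as well. Mycn (chromosome 12, 12936093 to 12941914, minus strand) was at 381, 411, 322 and 291 CPM in PBS and at 169, 199, 110.4 and 132 CPM in IL-1β (-1.22 ± 0.09, 2.33-fold lower, adjusted p = 5.51e-06, edgeR). Myc was at 569, 529.7, 559 and 578 CPM in PBS and 401, 465, 420.2 and 388 CPM in IL-1β (-0.42 ± 0.08, adjusted p = 0.00413). Both groups were separated for both genes, and these were the only called members of 12 tested in the Myc and Mxd network. The letters CACGTG, the E-box that Myc and Max bind, were searched in the 250 bases before each start in RefSeq promoters (GRCm38.p6), a palindrome that reads alike on both strands. They were found in 3 of 49 ribosome biogenesis genes with a promoter entry (6.12%), against 9.74% of the 10632 tested genes with an entry. Sequence outside these 250 bases, such as that after the start, was not searched. Whether Myc acts on these genes was not tested.

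In each list of supply genes for growth, a minority of members was called lower and most did not pass the test. Of 39 tested tRNA synthetase and amino acid genes, 10 fell and none rose, with a median of -0.23, and 6 fell without IL-1β replicate 1 or IL-1β replicate 3. Slc7a5, a carrier of large neutral amino acids, was at 127, 128, 117 and 109 CPM in PBS and 88.0, 90.3, 79.2 and 69.3 CPM in IL-1β (-0.56 ± 0.10, adjusted p = 0.00344, edgeR). Slc7a1, the arginine carrier, fell by 0.81 ± 0.15, and Shmt1, an enzyme of serine and folate metabolism, fell by 0.68 ± 0.12. Of 24 tested genes of nucleotide and polyamine synthesis, 4 fell, a number that went to 2 without IL-1β replicate 1 and to 10 without IL-1β replicate 2. Srm, which makes the polyamine spermidine, was at 213, 192, 240.4 and 259 CPM in PBS and 125, 153, 109.8 and 98.6 CPM in IL-1β (1.87-fold lower). Heat shock and chaperone genes had 5 of 27 called lower, with 1 left without IL-1β replicate 1, 3 without IL-1β replicate 3 or IL-1β replicate 4, and 9 without IL-1β replicate 2. Hspd1, the mitochondrial chaperone, was at 393 to 439.7 CPM in PBS and 299.6, 327, 267 and 235 CPM in IL-1β. Of 45 tested translation factors 5 fell, and 1 without IL-1β replicate 3, 2 without IL-1β replicate 4 or PBS replicate 3, 3 without IL-1β replicate 1 and 10 without IL-1β replicate 2.

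Genes of mitosis rose while those of early G1 were divided. Of 41 tested mitotic genes, 27 were higher and none lower, with a median of 0.41. The count fell to 10 without IL-1β replicate 3, with a median of 0.35, and to 13 without PBS replicate 1, and was 18 to 22 without any other library. Cenpa, the histone of the centromere (chromosome 5, 30666777 to 30674830, plus strand), was at 92.1, 90.5, 105 and 109 CPM in PBS and 147, 141, 182 and 166 CPM in IL-1β (0.68 ± 0.07, adjusted p = 0.000103, edgeR). Kif2c, a motor that detaches microtubules, was at 47.5 to 74.6 CPM in PBS and 88.3 to 105 CPM in IL-1β. Cdc25c, the phosphatase that starts mitosis, was at 18.8 to 19.9 CPM in PBS and 27.2 to 34.8 CPM in IL-1β. Of 46 tested DNA replication genes only Rrm2, a subunit of ribonucleotide reductase, was called, with a rise of 0.44 ± 0.10, and the list's median was 0.20 in the E061316 set and -0.28 in the untagged set.

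Of 12 tested G1 cyclins and kinases, 1 rose and 2 fell. Ccnd1, which encodes cyclin D1 (chromosome 7, 144929931 to 144939925, minus strand), was at 31.6, 23.6, 30.7 and 36.1 CPM in PBS and at 10.4, 7.37, 6.60 and 7.67 CPM in IL-1β (3.79-fold lower, adjusted p = 2.45e-05, edgeR). Ccnd2, for cyclin D2, was at 491, 424, 557 and 671 CPM in PBS and 251, 244, 257 and 243 CPM in IL-1β (2.13-fold lower). Their kinase Cdk6 (chromosome 5, 3341485 to 3531008, plus strand) moved in the opposite direction, from 177, 174, 202 and 203 CPM to 385, 317, 372 and 349 CPM (1.89-fold higher, adjusted p = 2.07e-05). All 3 genes had separated groups and kept their calls without any single library. Cdkn1c, which encodes the CDK inhibitor p57 of quiescent stem cells, fell from 40.9 to 54.1 CPM in PBS to 28.2 to 40.7 CPM in IL-1β (-0.59 ± 0.12, adjusted p = 0.0113), with replicate 3 the highest of the IL-1β libraries.

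CCAAT boxes, which the factor NF-Y binds, are known in promoters of mitotic genes, and 3 stretches of RefSeq promoters (GRCm38.p6) with this pentamer are given to show how the members carry it. Each reads 5′ to 3′ on the gene's strand, and capitals mark CCAAT or its reverse ATTGG. Starts are those of the RefSeq entries and can differ from the gene coordinates. The marked matches of Cenpa lie inside its coordinates given above.
Cenpa, chr5:30666741-30666817, plus strand: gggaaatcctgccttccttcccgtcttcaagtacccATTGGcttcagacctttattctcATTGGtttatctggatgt
Aurka, chr2:172370581-172370657, minus strand: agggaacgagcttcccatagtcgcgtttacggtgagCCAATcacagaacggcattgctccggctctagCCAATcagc
Ccnb1, chr13:100786545-100786621, minus strand: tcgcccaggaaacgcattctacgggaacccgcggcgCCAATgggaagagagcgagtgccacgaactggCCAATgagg
Within 250 bases before the start, on either strand, CCAAT was found in 25 of 35 mitotic genes with a promoter entry (71.4%) and in 40.1% of the 10632 tested genes. TTTGAA, the CHR element of cell cycle promoters, was found in 12 of the 35 (34.3%) and in 12.8% of all. Aurka and Ccnb1, a mitotic kinase and the mitotic cyclin B1, were chosen for display after their values were seen; both rose, by 0.54 (adjusted p = 0.00349) and 0.48 (adjusted p = 0.0077).

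Guanylate-binding proteins (GBPs) and immunity-related GTPases, which defend cells against intracellular microbes and are induced by interferon gamma, held many of the decreases. Of 17 tested, 10 were lower and none higher, with a median of -0.46; 8 were lower without IL-1β replicate 3 and 6 without PBS replicate 3. Gbp6 was at 32.3, 29.9, 66.5 and 37.5 CPM in PBS and 11.4, 11.3, 11.7 and 10.8 CPM in IL-1β (3.56-fold lower, adjusted p = 6.21e-05, edgeR). Gbp4 was at 18.4 to 27.5 CPM in PBS and 3.67 to 5.87 CPM in IL-1β (4.67-fold lower). PBS replicate 3 had the highest Gbp6 level, while the IL-1β libraries lay within a narrow band.

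The family lies in clusters on several chromosomes. The 6 tested genes of the chromosome 5 cluster (Gbp8, Gbp9, Gbp4, Gbp10, Gbp6 and Gbp11; 105014150 to 105346472, 332 kb) were all lower, with a median of -2.03 and a range of -4.39 to -0.75. All 6 remained lower without IL-1β replicate 3, and 4 or 5 were called when PBS replicate 3, IL-1β replicate 1 or IL-1β replicate 4 was left out. Of the 4 tested genes of the chromosome 3 cluster (Gbp5, Gbp7, Gbp3 and Gbp2; 142493978 to 142638008, 144 kb), 1 was lower, with a range of -0.24 to 0.18. That gene, Gbp7, was at 198 to 214 CPM in PBS and 176 to 179 CPM in IL-1β (adjusted p = 0.0419) and lost its call without 7 of the 8 libraries. Gbp2 was at 85.9 to 104 CPM in PBS and 94.7 to 118 CPM in IL-1β and did not pass the test (adjusted p = 0.261). The difference between the clusters itself was not tested. Gbp11 was at 1.37 to 8.22 CPM in PBS and listed at 0 in IL-1β replicates 1 and 2, and its call ended without PBS replicate 3. The members of these clusters are close copies and some of their annotations overlap, so reads may be shared among them. Apart from Gbp4 and Gbp6, the GBP genes were chosen for description after their values were seen.

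Promoters of the chromosome 3 and chromosome 11 members are shown because members with and without a call share a stretch of sequence. Capitals mark the core of the interferon-stimulated response element, searched as TTTC, any 2 letters and TTTC on both strands. In Gbp3 there are 2 overlapping matches. Starts are those of the RefSeq entries here too, and the marked matches of Gbp2 and Tgtp1 lie inside the coordinates of these genes.
Gbp2, chr3:142620568-142620649, plus strand: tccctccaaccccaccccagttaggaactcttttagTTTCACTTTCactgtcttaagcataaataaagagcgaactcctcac
Gbp3, chr3:142559963-142560043, plus strand: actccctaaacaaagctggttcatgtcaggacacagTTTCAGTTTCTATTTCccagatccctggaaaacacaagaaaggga
Gbp7, chr3:142530247-142530328, plus strand: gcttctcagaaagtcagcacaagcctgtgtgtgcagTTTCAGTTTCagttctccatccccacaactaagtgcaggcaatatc
Tgtp1, chr11:48992278-48992359, minus strand: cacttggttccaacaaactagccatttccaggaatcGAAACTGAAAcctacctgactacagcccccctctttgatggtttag
Igtp, chr11:58199486-58199555, plus strand: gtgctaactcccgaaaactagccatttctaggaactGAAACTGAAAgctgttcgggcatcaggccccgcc
All 9 list members with a promoter entry (Gbp2, Gbp3, Gbp5, Gbp7, Irgm1, Irgm2, Igtp, Tgtp1 and Tgtp2; none of the chromosome 5 genes, and 3 of the 9 were called lower) held a match within 250 bases before the start, against 3.21% of the 10632 tested genes, 4.67% of the genes called higher and 3.90% of those called lower. Gbp2 and Gbp3 carry it without a call, and Tgtp1, at 43.5 to 48.5 CPM in PBS and 27.1 to 36.3 CPM in IL-1β, carries it and fell (-0.61 ± 0.11, adjusted p = 0.00309, edgeR).

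Other interferon-related lists held few calls. Of 44 tested interferon-stimulated genes, 4 fell and none rose, with a median of -0.13, and 1 fell without IL-1β replicate 1, IL-1β replicate 3, IL-1β replicate 4 or PBS replicate 3, and 2 without PBS replicate 2. Bst2, which tethers budding viruses to the cell, fell by 0.67 (adjusted p = 0.00753, edgeR). Of 23 tested MHC class I and peptide loading genes, 2 fell and none rose, with 1 to 4 called lower when single libraries were left out, the 4 without IL-1β replicate 2. The share called lower was 9.09% of the interferon-stimulated list and 8.70% of this list, against 3.52% of all genes tested.

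MHC class II genes, which present peptides to helper T cells, changed in both directions within a stretch of 224 kb on chromosome 17 (34092340 to 34316674). The chain gene H2-Aa was at 58.2, 59.0, 85.1 and 96.7 CPM in PBS and 23.2, 31.3, 33.2 and 22.9 CPM in IL-1β (2.64-fold lower, adjusted p = 0.000235, edgeR), and its neighbours H2-Ab1 and H2-Eb1, chosen after their values were seen, fell by 0.76 and 1.43. Cd74, the invariant chain encoded elsewhere, was at 112, 106, 142 and 173 CPM in PBS and 49.1, 60.03, 43.9 and 33.6 CPM in IL-1β (2.84-fold lower). H2-Ob, which encodes a chain of the loading inhibitor DO (chromosome 17, 34238903 to 34254414, plus strand), rose from 17.4, 22.2, 26.4 and 22.03 CPM to 33.0, 35.6, 43.4 and 55.7 CPM (1.88-fold, adjusted p = 0.000779). Its partner chain H2-Oa, also chosen after its value was seen, rose by 0.68 (adjusted p = 0.0133), a call that ended without IL-1β replicate 1. Of 15 tested class II genes and modulators, 3 rose and 4 fell, and 4 fell whichever library was left out.

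Retinoic acid is known to hold stem cells in quiescence, and the genes of its turnover changed in both directions. Cyp26b1, which degrades retinoic acid, was at 10.8, 12.7, 9.34 and 8.61 CPM in PBS and 0.898, 1.98, 2.47 and 1.997 CPM in IL-1β (5.69-fold lower, adjusted p = 0.000107, edgeR). Dhrs3, which turns retinal back to retinol, rose from 6.82 to 10.5 CPM in PBS to 28.5, 17.9, 24.2 and 31.7 CPM in IL-1β, and Rdh12, another retinal reductase, rose by 0.65. Of 15 tested, 2 rose and 3 fell. Only 1 fell without IL-1β replicate 1, IL-1β replicate 4 or PBS replicate 3, and 2 without IL-1β replicate 3. In the TGF-β pathway, 6 of 34 tested genes rose and 1 fell, with 3 rising without IL-1β replicate 4 and none falling without IL-1β replicate 1 or 3 or PBS replicate 1 or 2. The calls are 17.6% higher and 2.94% lower, against 3.94% and 3.52% over all genes tested. Tgfbr3, the co-receptor betaglycan, was at 114, 120.2, 84.9 and 64.7 CPM in PBS and 201, 163, 158 and 172 CPM in IL-1β, and Smad1, a mediator of the BMP branch, rose by 0.52 ± 0.08 (adjusted p = 0.00119).

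Lysosome and survival genes completed the calls by function. Of 45 tested lysosome and autophagy genes, 8 rose and 2 fell, with a median of 0.12, and 1 fell without IL-1β replicate 1 or 3 or PBS replicate 2. Cd68, a lysosomal membrane glycoprotein of phagocytes, was at 11.1 to 15.1 CPM in PBS and 31.0, 30.2, 20.1 and 24.5 CPM in IL-1β (0.97 ± 0.15, adjusted p = 0.00137, edgeR). Cd63, another lysosomal membrane protein, fell by 0.59. Of 27 tested p53 genes, 4 rose and 2 fell, while 2 rose without PBS replicate 1 and 1 fell without IL-1β replicate 1. Pmaip1, which encodes the death-promoting protein NOXA, was at 0 to 0.72 CPM in PBS and 2.37 to 3.99 CPM in IL-1β (adjusted p = 0.00859), near the lower end of what this depth resolves. Bok, another death-promoting Bcl2 relative, fell from 5.39 to 10.9 CPM in PBS to 1.56 to 4.74 CPM in IL-1β. Of 29 tested genes of the unfolded protein response, 5 fell and none rose, a number that ranged from 1 without IL-1β replicate 1, and 2 without IL-1β replicate 2, PBS replicate 1 or PBS replicate 2, to 7 without PBS replicate 4. Xbp1, its transcription factor, fell by 0.56 ± 0.08 (adjusted p = 0.000628).

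Several large lists held almost no calls. None of 38 tested proteasome genes and none of 44 tested histone genes was called. The proteasome median was 0.11 in the E061316 set and -0.40 in the untagged set, and the histone median 0.56 and 0.04. Of 79 tested respiratory chain genes 1 fell, of 75 mitochondrial ribosomal proteins 1 fell, and of 36 genes of glycolysis and hypoxia 1 fell, a number that was 2 without PBS replicate 1 and 3 without IL-1β replicate 2. None of these lists held a gene that rose. The medians of the respiratory chain (0.22 and -0.43) and mitochondrial ribosomal protein lists (0.12 and -0.40) also had opposite signs in the E061316 and untagged sets. On simulated counts for the same comparison, over 15044 genes, 40.8% of 1.5-fold changes and 72.9% of 2-fold changes were recovered. The simulated counts took their spread from the trend over genes, with no set effect and no library apart. These shares may therefore not hold for the real counts.

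**Figure D3:**
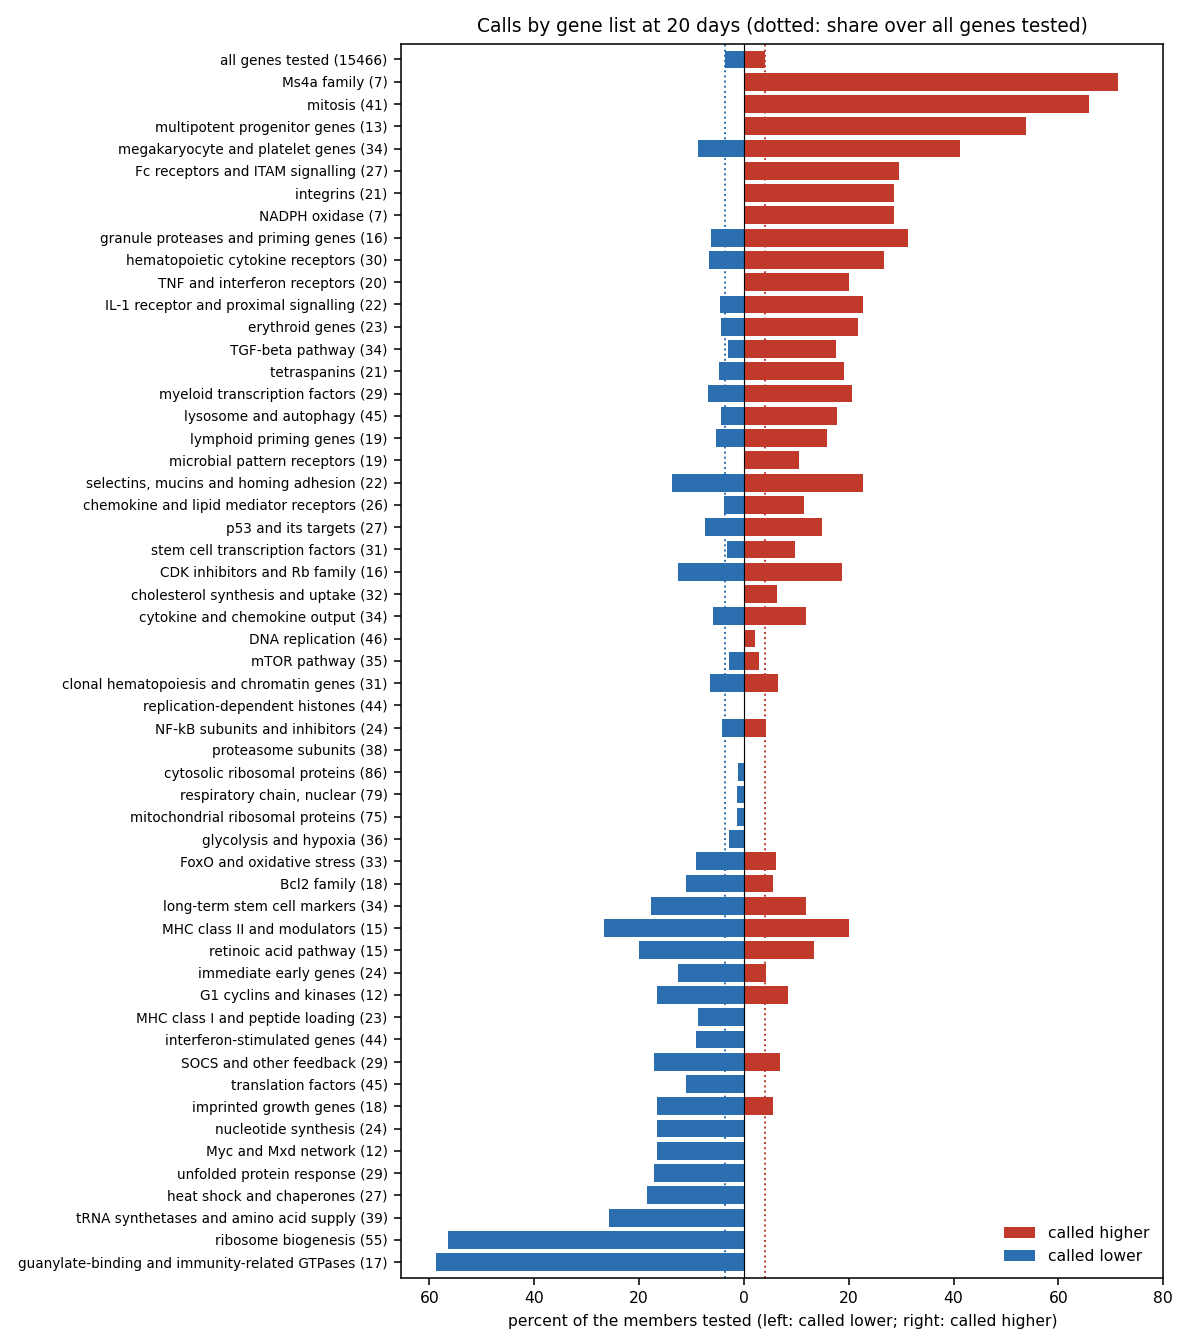
Horizontal bars give, for the 54 lists with at least 7 members tested, the percentage of members called higher (red, right) and lower (blue, left) with IL-1β at 20 days, with the number tested in brackets; the dotted lines mark the 3.94% and 3.52% over all genes tested. Ms4a, mitosis and progenitor genes reach furthest to the right and GBP and ribosome biogenesis genes furthest to the left, and without IL-1β replicate 3 the 27 mitosis calls became 10.

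Within each naming set the direction of the calls was the same. All 1154 called genes had a log2 fold change of the same sign in the E061316 set and in the untagged set, each with 2 libraries against 2; a gene with opposite effects is less likely to be called, so this describes the calls and is no independent check. Across all genes tested, Pearson's r between the effects of the sets was 0.232, over genes that are not independent replicates. The effect differed between the sets for 26 genes (0.168%), 1 of which was among the 1154. That count ranged from 1 to 2366 when single libraries were left out, the latter without PBS replicate 3. Tested alone, the E061316 effect gave 444 called genes and the untagged effect 1979.

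**Figure D4:**
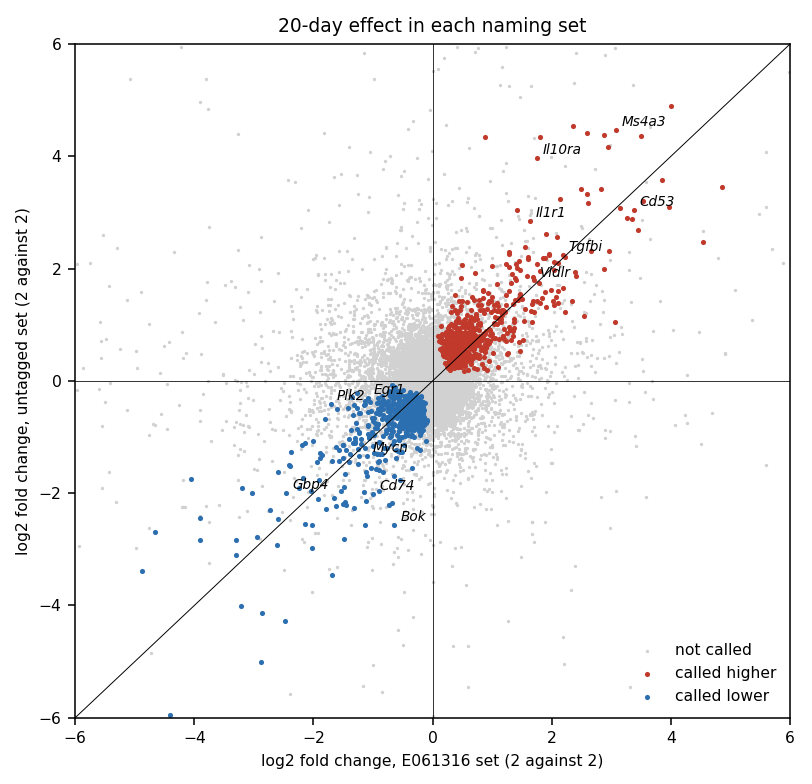
Each point is a gene tested, with the log2 fold change of IL-1β over PBS in the E061316 set on the x axis and in the untagged set on the y axis, both shown between -6 and 6, which leaves 124 genes outside. The called genes (red higher, blue lower) lie above 0 in both sets or below 0 in both sets, while the uncalled genes form a cloud around 0.

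The 20-day effect was set against the effect of a single day, measured in other mice with their own controls. The effects differed for 331 genes (2.14%), 178 of them with the higher value at 20 days. The number rested on several libraries: it was 95 without IL-1β replicate 4, 122 without IL-1β replicate 1, 134 without PBS replicate 3, 135 without IL-1β replicate 3 and 604 without IL-1β replicate 2. It was 23 without the set term. Duration and naming set cannot be told apart as such, since each set holds a single duration, and the difference uses only contrasts within sets. Of the 40 named genes with a difference, 19 kept it whichever of the 8 libraries was left out.

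Some of these genes had opposite signs. Ccl9 had a log2 fold change of 1.59 at 20 days and -1.02 at 1 day, a difference of 2.61 (adjusted p = 0.00553, edgeR interaction). H2-Ob had 0.91 and -0.88, a difference of 1.79 (adjusted p = 0.00173). Socs2 had -1.37 and 0.48, a difference of -1.85 (adjusted p = 0.000656). Each of these 3 differences kept its call without any single 20-day library. Sox18 and Ccnd1 fell at 20 days with small values at 1 day, -0.65 and -0.33, and differences of -2.11 and -1.59.

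Growth and division genes differed in the same comparison. In ribosome biogenesis the median was 0.06 at 1 day and -0.41 at 20 days, all 55 genes had the lower value at 20 days, and the difference was called for 9. For tRNA synthetase and amino acid genes the medians were 0.22 and -0.23, all 39 were lower at 20 days, and 10 differences were called. Lists with almost no calls at 20 days leaned the same way, without a called difference. The 20-day value was the higher in only 1 of 38 proteasome genes and 3 of 79 respiratory chain genes. It was the higher in 5 of 86 cytosolic and 2 of 75 mitochondrial ribosomal protein genes. The share over all genes tested was not taken. DNA replication had 26 of 46 genes called higher at 1 day with a median of 0.58, against 1 and -0.04 at 20 days, and 10 differences were called. Mitotic genes were called higher in 38 of 41 at 1 day with a median of 0.86, and 4 differences were called, each lower at 20 days. In the other direction, 20 of 21 integrin genes and all 7 Ms4a genes had the higher value at 20 days, with 2 and 3 differences called. The same held for 23 of 27 Fc receptor genes and partners, 24 of 30 cytokine receptors and 27 of 34 platelet and megakaryocyte genes. It also held for 26 of 31 stem cell transcription factors and 27 of 34 cytokine and chemokine genes. Of lysosome and autophagy genes it held for 35 of 45, and of interferon-stimulated genes for 31 of 44. The share over all genes tested was not taken here either, so this lean cannot be called particular to any list. Itgb2 had a difference of 1.17 and Plac8 of 1.30, both kept without any single 20-day library. The GBP list had medians of -0.46 at 20 days and -0.52 at 1 day, with 1 difference called.

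Transcripts of other cells were summed by marker list. The neutrophil list of 15 genes came to 5.37 to 7.75 CPM in PBS and to 8.92, 4.598, 1923 and 5.30 CPM in IL-1β, and in IL-1β replicates 1, 2 and 4 between 6 and 8 of the 15 genes had no count. Ngp at 551 CPM, S100a9 at 306 CPM and Ltf at 300.3 CPM led the list in replicate 3. The monocyte sum was 19.7 to 20.7 CPM in PBS and 39.3, 38.9, 80.1 and 37.7 CPM in IL-1β, above PBS in all 4 libraries. Outside replicate 3 this rise was mostly that of Ms4a6c, described above, the 1 gene called higher of the 9 tested. The part of such cells in the myeloid calls was not tested. The T and NK cell sum was 44.9 to 62.1 CPM in PBS and 91.2 to 109.6 CPM in IL-1β, mostly Nkg7, and the endothelial and stromal sum was 70.8 to 119 CPM and 158 to 188 CPM, mostly Pecam1. The mast cell and basophil sum was 487 to 521 CPM in PBS and 525 to 696 CPM in IL-1β, with the groups just separated. Of its 6 tested genes 4 were called higher, and 2 without IL-1β replicate 1 or 4 or PBS replicate 1, 2 or 3. Fcer1a, a chain of the IgE receptor, was the 1 that kept its call without IL-1β replicate 3. The B and plasma cell, dendritic cell, eosinophil and erythroblast sums overlapped between the groups, for example 1579 to 1965 CPM in PBS and 1447 to 1733 CPM in IL-1β for erythroblasts. The macrophage sum was 104 CPM in PBS replicate 1 and 55.8 to 68.4 CPM in all other libraries of the comparison.

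**Figure D5:**
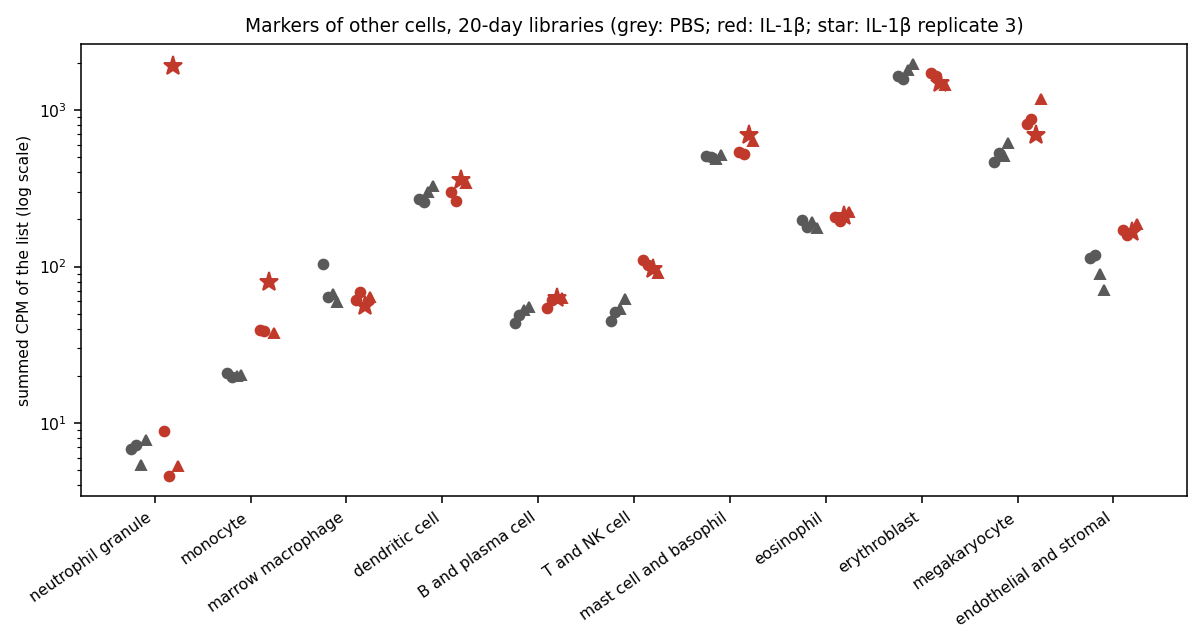
Points are the summed CPM of each marker list in each of the 8 libraries at 20 days, on a log axis, with PBS in grey, IL-1β in red, circles for the E061316 set, triangles for the untagged set and a star for IL-1β replicate 3. IL-1β replicate 3 lies at 1923 CPM for neutrophil granule genes, where every other library is between 4.598 and 8.92 CPM. The megakaryocyte and monocyte sums of the IL-1β libraries lie above those of PBS. Itga2b makes up most of the megakaryocyte sum, and Ms4a6c is the only monocyte gene called higher.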

How the data were processed

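RNA was counted per gene in 14 libraries of sorted mouse bone marrow cells, of which the 8 at 20 days form the comparison. Per the labels' protocols, amplification with SMARTer chemistry (kit v4) started from 1 ng of RNA, Nextera XT libraries from 150 pg of cDNA, and reads were single-end and 100 nt long. The libraries are unstranded, so antisense overlaps may share reads. The authors deposited raw counts per gene symbol, with no normalisation. Per the submitters' processing notes, the tools were STAR 2.4.2a, HTSeq 0.6.1, DESeq2 1.12.3, Trimmomatic 0.32, Cuffdiff and Cufflinks 2.0.2, on GRCm38.p4; annotation and strand setting: not given in these sources.

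The test was that of edgeR 4.0.16 (R 4.3.3), with TMM factors, filterByExpr with a minimum count of 10, a two-sided quasi-likelihood F-test with robust dispersion estimates and Benjamini-Hochberg adjustment at 0.05. The model took all 14 libraries, with terms for naming set, for IL-1β at 1 day and for IL-1β at 20 days, leaving 8 residual degrees of freedom and a biological coefficient of variation of 0.198. The SE was derived from the log2 fold change and its F statistic, an approximation that is weakest at low counts. The steps were tested on simulated data. Sums over marker lists use library totals. Over the 12 pairs of replicates at 20 days, chi-square per degree of freedom was 11.5 to 81.4, so every pair differed by more than sampling noise. Promoter sequences are RefSeq's, GRCm38.p6, and coordinates of genes are GENCODE vM21 on GRCm38, and their starts can differ. The files name genes by symbol. Amplified reads without molecular identifiers are not independent molecules.

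The lists and the named genes were chosen with earlier results of these data known. Named genes are the 15 genes with the largest rise and the 15 with the largest fall that were called, with a mean of at least 5 CPM, separated groups, a call also without IL-1β replicate 3 and no predicted name; per list the 3 called members with the smallest p, or 2 where none was called; and fixed genes (Spi1, Il1r1, Il1rap, Cd53, Itgb2, Flt3, Cd48, Slamf1, Procr, Kit, Ly6a, Myc, Mycn, Ccnd1, Ccnd2, Cdk6, Cdkn1c, Cebpa, Csf3r, Csf1r, Itgam, H2-Aa, Cd74, Tgfbi, Vldlr, Socs3, Nfkb1, Ms4a3). Not every such gene is described. Genes outside the rule are said to be chosen after their values were seen, as were Igtp, Ngp, S100a9, Ltf and, of the GBP clusters, all but Gbp4 and Gbp6. Alternatives were other scaling factors, no filter, no set term, the 8 libraries alone, a replicate block, each set alone, each 20-day library left out, and DESeq2 1.42.0.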

Additional observations from a re-analysis of the deposited data

Results flagged for a closer look

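Single libraries stood apart from the other 3 of their group by Dixon's criterion for 4 samples, in 15 of the 372 groups of values screened at 20 days. Chance gives this in about 1 in 20 groups, or 18.6 of them, so the number is not above what chance gives. IL-1β replicate 3 held most of them: Lcn2 at 94.1 CPM, Ncf1, a subunit of the phagocyte oxidase, at 24.6 CPM, Hdc, which makes histamine, at 14.6 CPM, Spi1 at 132 CPM, the neutrophil granule sum at 1923 CPM and the monocyte sum at 80.1 CPM were its high values, while Treml1 at 12.8 CPM and Clca3a1, a chloride channel accessory protein, at 53.9 CPM were low ones. IL-1β replicate 1 was high for Cd53 at 164 CPM, and IL-1β replicate 4 was low for the chemokine receptor Cxcr4 at 20.6 CPM. PBS replicate 4 was low for Icam1 at 89.4 CPM, for the interferon-stimulated Ifi44 at 56.3 CPM and for Smad1 at 85.0 CPM. PBS replicate 3 was high for the antiproliferative gene Btg2 at 52.7 CPM, and PBS replicate 1 was high for the macrophage sum at 104 CPM.

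The 20-day and 1-day effects differed by the interaction test for 40 named genes (adjusted p from 0.000656 to 0.0498, edgeR). The 20-day log2 fold change was above the 1-day one by 2.61 for Ccl9, 2.42 for Ms4a3, 1.88 for Spic, 1.79 for H2-Ob, 1.79 for Il4, 1.62 for Ncf1, 1.57 for Cd52, 1.502 for Hbb-bt, 1.43 for Dhrs3, 1.39 for Itgb7, 1.30 for Plac8, 1.18 for Flt3, 1.17 for Itgb2, 1.11 for Fas, 1.01 for Ms4a6c, 1.01 for Aqp1, 1.00 for Pecam1, 0.89 for Ms4a6b, 0.85 for Tgfbr3, 0.85 for Kdm5b, 0.82 for Slamf1, 0.73 for Gstm1 and 0.72 for Irak3. The signed difference was -2.31 for Bok, -2.11 for Sox18, -1.85 for Socs2, -1.59 for Ccnd1, -1.53 for Trib2, -1.51 for Chst2, -0.97 for Shmt1, -0.96 for Srm, -0.89 for Slc7a5, -0.84 for Hsph1, -0.75 for Hspd1, -0.75 for Gart, -0.72 for Mycn, -0.70 for Polr1a, -0.63 for Gnl3, -0.63 for Srsf2 and -0.61 for Ppan. Leaving out a 20-day library ended between 0 and 7 of 8 calls of a gene, with Fas the gene that lost 7.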

How the results depend on the processing

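The direction of every called gene named in the report was the same under each alternative that tested it. Of the 157 genes called and taken by the naming rule, 118 kept the call whichever 20-day library was left out. The call ended for 42 of the 157 without the set term, for 69 in the E061316 set alone, 31 in the untagged set alone, 23 for the 8 libraries alone, and 28 with a replicate block. The 1154 calls (609 higher, 545 lower) were 1173 with DESeq2 size factors, 1225 with upper-quartile factors and 1056 without the filter. They were 525 (275 and 250) without the set term, 750 with 328 lower for the 8 libraries alone, 444 (201 and 243) in the E061316 set alone, 1979 with 1098 lower in the untagged set alone, and 1809 (922 and 887) by DESeq2. Leaving out single libraries gave 648 to 1140 calls, 316 to 533 higher and 316 to 607 lower. The 331 differences between durations were 23 without the set term, 1182 by DESeq2 and 95 to 604 with a library left out; the 26 differences between sets were 41 with DESeq2 size factors, 1244 by DESeq2 and 1 to 2366. Fewer libraries in a fit leave fewer degrees of freedom; other causes of these shifts were not tested.

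Reversals fell on genes without a call: Spi1 was -0.0157 in the untagged set; Il1rap was -0.00415 with upper-quartile factors, -0.00621 without the set term, -0.0661 in the E061316 set and -0.22 to 0.28 with a library left out; Kit was -0.195 in the E061316 set and -0.10 to 0.25 with a library left out; Ly6a was -0.0876 in the untagged set and Csf1r -0.0724 in the E061316 set.

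Same-numbered replicates were checked as pairs. Their deviations from the group means correlated at 0.018, 0.274, 0.112 and 0.0627. Crossed pairs of the same set correlated at -0.055, 0.051, 0.0589 and 0.0932. With so few libraries per set these values cannot settle whether the numbers pair the samples, and the main fit takes them as unpaired. With a replicate block 672 genes were called (363 higher, 309 lower). Depth limits genes near 3 counts, 0.102 to 0.134 CPM.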
